A study of Mus musculus with 53 samples.

Results

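The genes described here are 35 markers of microglia, the resident immune cells of the brain, out of 53379 genes in the count tables. They were chosen by name, as a list of microglial identity and activation genes, with earlier results of these data known, and no measured value enters the rule. Each was followed in 49 of the 53 libraries of a total RNA-seq study of 2 hypothalamic nuclei, the paraventricular nucleus (PVN) and the arcuate nucleus (ARC), which were cut by laser from 20 µm brain sections of mice aged 13 to 14 weeks. The mice were wild type (Nnat+/+) or carried a paternally inherited null allele of the imprinted gene Nnat (Nnat+/-p), which leaves them without an expressed copy because the maternal copy is silent. The question addressed was whether microglial transcripts moved with genotype, with the obesity that some Nnat+/-p mice develop, or with diet.

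Chow-fed Nnat+/-p mice were split by labelled body weight into non-obese animals (males under 35 g, females under 25 g) and obese animals (males over 37 g, females over 30 g). The female PVN libraries were all from chow-fed mice and comprised 4 wild-type animals and 6 Nnat+/-p animals, of which 3 were non-obese and 3 obese. Male PVN libraries came on chow from 3 wild-type animals and from 7 Nnat+/-p animals, of which 3 were non-obese and 4 obese, and from 6 wild-type and 3 Nnat+/-p mice on a 45% high fat diet (HFD). Male ARC libraries came from 2 wild-type, 4 non-obese and 4 obese Nnat+/-p mice on chow, and from 6 wild-type and 4 Nnat+/-p mice on HFD. The null allele was present in every cell of the animal, so no group was specific to a cell type. Each library was labelled with 1 mouse's weight, and the p-values below measure the spread between these libraries. Samples 39 and 40, both non-obese Nnat+/-p ARC, carry the same weight of 34.3 g, while PVN had 1 mouse of that weight, so they may come from 1 animal. Samples 1 and 2, wild-type female PVN, share 24.1 g. The labels do not say whether these are separate mice, and each was counted as 1. HFD-fed mice weighed 37.4 to 43.9 g, so in males diet came with a body weight in the range of the obese group.

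Microglia enter the brain from yolk sac precursors early in development and renew themselves there. They depend on signalling through the receptor Csf1r and hold their identity under the influence of TGF-beta and of the transcription factors Spi1, Irf8 and Sall1. Their processes scan the tissue with purinergic and chemokine receptors such as P2ry12 and Cx3cr1, they tag material for removal with the complement component C1q, and they digest it in lysosomes rich in cathepsins. In the mediobasal hypothalamus, which holds the ARC, microglia have been studied for their response to dietary fat. Because whole captured tissue was sequenced, fewer microglia and less of a transcript per microglia cannot be told apart in any value below.

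Total counts ran from 1479953 to 30228973 per library, and the 35 genes together received 558 to 11069 of them. Nnat itself was measured at 224 to 584 CPM (counts scaled to a common library size) in the 21 wild-type libraries and at 0.268 to 13.7 CPM in the 28 Nnat+/-p libraries, so the genotype labels held in all 49. The 3 count tables were 3 sequencing pools (female PVN, male PVN and male ARC), and nucleus and sex cannot be told apart from pool. The library labelled Sample 15, wild-type chow PVN, had a summed level of 5 PVN neuron genes (Avp, Oxt, Sim1, Crh and Trh) of 10.9 CPM against 1205 and 1396 CPM in the other 2 of its group, and Sample 24, wild-type HFD PVN, had 157 CPM. Sample 15 also had 179 CPM of summed ARC neuron genes (Pomc, Agrp, Npy, Ghrh and Tbx3), against 7.04 and 14.9 CPM in the other 2. Its endothelial markers summed to 72.2 CPM against 188 and 142 CPM. Where this library was captured was not tested. In the female table, Samples 2 and 10 had counts for 24 and 17 of the 35 genes against 27 to 34 in the other 8 libraries. Median differences of the microglia genes without Samples 15 and 24, or without Samples 2 and 10, are given beside the PVN results.

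Promoter sequences are shown for 3 of the genes called in a comparison below, the lysosomal protease gene Ctss and the complement genes C1qb and C1qc. The letters searched were GAGGAA, the core of the PU box bound by the Spi1 protein, and TTCCTC, the same letters on the other strand, and matches are in capitals. Each sequence holds 250 bases before and 50 bases from the RefSeq transcription start (mouse build GRCm38.p6) and is written 5′ to 3′ on the strand of the gene.
Ctss, chr3:95526536-95526835, plus strand: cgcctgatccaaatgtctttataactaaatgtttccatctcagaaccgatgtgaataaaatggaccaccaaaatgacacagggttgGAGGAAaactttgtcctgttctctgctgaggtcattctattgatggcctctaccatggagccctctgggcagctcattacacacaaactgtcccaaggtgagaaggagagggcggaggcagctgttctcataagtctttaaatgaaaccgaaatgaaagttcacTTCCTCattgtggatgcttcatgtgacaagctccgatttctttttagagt
C1qb, chr4:136886151-136886450, minus strand: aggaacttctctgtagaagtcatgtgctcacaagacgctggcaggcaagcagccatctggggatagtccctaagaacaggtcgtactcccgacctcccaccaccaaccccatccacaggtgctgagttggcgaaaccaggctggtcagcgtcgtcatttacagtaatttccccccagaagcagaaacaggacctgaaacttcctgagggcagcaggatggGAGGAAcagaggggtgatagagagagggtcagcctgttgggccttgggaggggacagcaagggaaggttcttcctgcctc
C1qc, chr4:136892865-136893164, minus strand: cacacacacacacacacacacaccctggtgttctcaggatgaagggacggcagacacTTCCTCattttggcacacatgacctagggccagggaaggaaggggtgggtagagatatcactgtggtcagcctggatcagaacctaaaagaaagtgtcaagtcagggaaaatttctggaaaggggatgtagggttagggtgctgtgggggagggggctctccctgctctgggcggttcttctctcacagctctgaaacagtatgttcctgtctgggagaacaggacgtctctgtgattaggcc
The letters occurred 2 times in the Ctss window, 1 time in the C1qb window and 1 time in the C1qc window. Of other called genes, which are not shown, Fcgr3, Aif1 and P2ry13 had a promoter that held them. Tgfb1, Olfml3, Ly86, Cx3cr1, P2ry12 and Fcer1g were matched to promoters and had none that did. RefSeq promoters were matched for 27 of the 35 genes (32 promoters), and 17 of these promoters, or 53.1%, held the letters on either strand, against 9289 of all 32851 promoters, or 28.3%. These are matches of letters, not measured binding.

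All defining markers were present. The median level was above 0 for 33 of the 35 genes in each male table, and the exceptions were the cytokine genes Il1b and Tnf. On a per-length scale, Ctss was the most abundant of the 35 in every table, with a median of 49.1 CPM per kb in ARC, 29.5 in male PVN and 31.7 in female PVN. The 3 C1q chain genes and Csf1r, the receptor for the survival factors Csf1 and Il34, followed. In ARC the medians were 14.9 CPM per kb for C1qa, 11.2 for C1qb, 6.55 for C1qc and 5.63 for Csf1r. Ctss alone made up 22.3% of the summed CPM of the 35 genes in ARC, with all 20 libraries added together. Il1b was at 0 in 18 of 20 ARC, 14 of 19 male PVN and all 10 female PVN libraries, and Tnf at 0 in 14, 11 and 8 of them. With 3 counts as the level that a count of 0 allows, these zeros leave room for up to 0.0992 to 2.03 CPM depending on the library, and this covers counting error only.

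**Figure D1:**
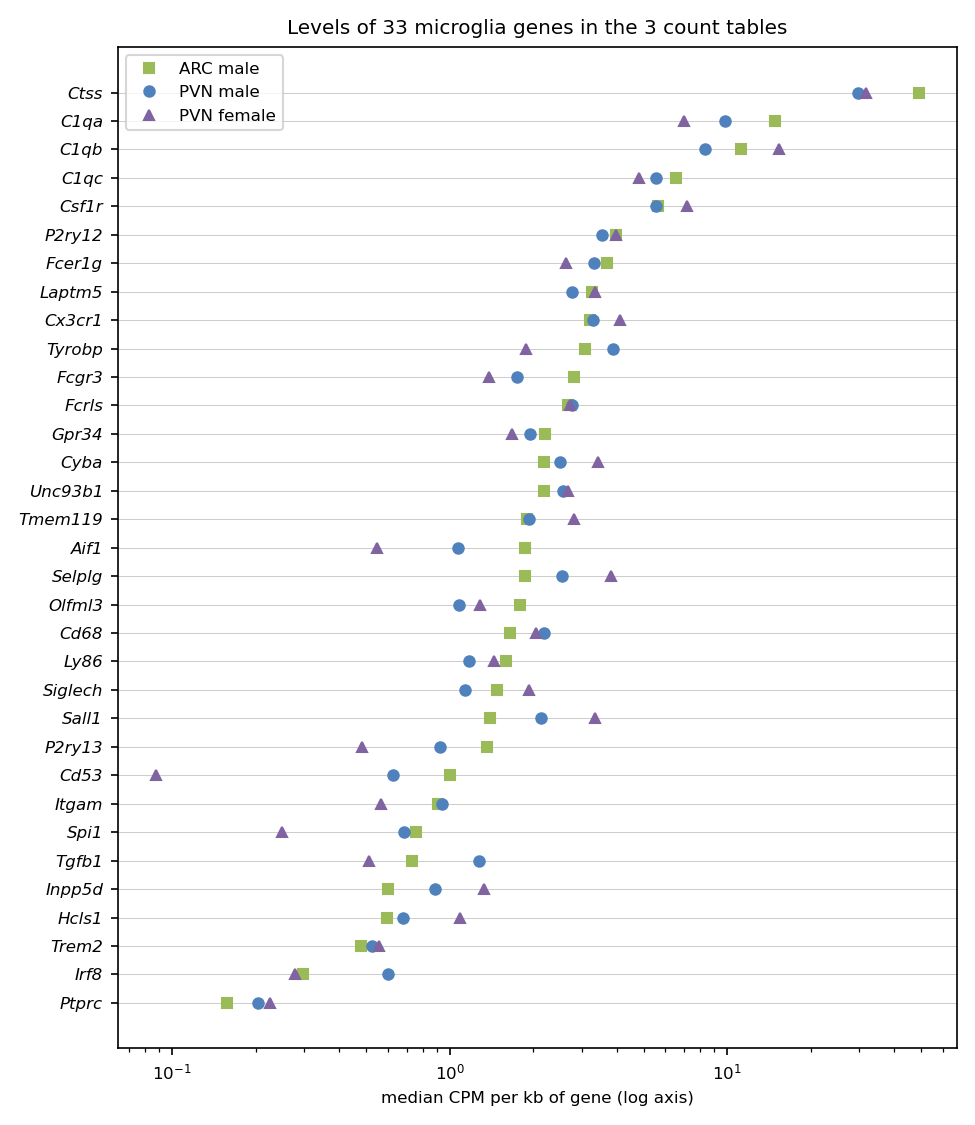
Median level of 33 microglia genes in CPM per kb of gene (horizontal log axis), with 1 row per gene: green squares, male ARC (20 libraries); blue circles, male PVN (19); purple triangles, female PVN (10). Ctss stands at the top in all 3 tables, and Il1b and Tnf are left out because their male medians were 0.

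The levels of some of these genes are uncertain because of overlapping gene models, and whether the counting used the strand is not given in the sources used here. In the annotation, 873 exon bases of Csf1r (15.1%) are shared with Hmgxb3 on the opposite strand, and 68.7% of the exon bases of Itgam, the integrin subunit known as CD11b, are shared with the gene model Gm49368 on the same strand. Cx3cr1, P2ry12 and Il1b share 1.7%, 0.4% and 1.3% with a gene on the opposite strand. The other 30 share none.

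The 35 genes did not rise and fall as 1 block across libraries. As a description, the median Spearman correlation over all pairs of the genes was 0.062 in ARC, 0.039 in male PVN and 0.006 in female PVN. The female value rests on 10 libraries. The 10 genes outside the list whose level was most like the mean of the 35, among 14026 genes compared, were Vangl1, Cited1, Hist1h4h, Mir703, Acvr1c, Gm44250, Gm10516, Coch, Cklf and Gdf11, with mean correlations over the 3 tables of 0.63 to 0.54. None of these is on any of the microglia lists used here.

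ARC and PVN were compared in 15 pairs of male libraries that carried the same genotype, diet and weight in both tables and so probably came from the same mouse. Of the 30 microglia genes tested, 13 were higher in ARC and 1 was lower. The background was high, since 42.1% of all 12421 genes were called in this comparison (edgeR quasi-likelihood test, adjusted p under 0.25), 21.5% of them as higher and 20.6% as lower in ARC. The median log2 difference was 0.42 for the 30 genes and 0.00 for all genes, and 25 of the 30 were above 0, as were 50.2% of all genes. At an unadjusted p under 0.05, 33.5% of all genes passed. At an adjusted p under 0.05, 9 of the 30 passed, against 21.9% of all. By role, 5 of 10 surface genes, all 3 C1q chains, 2 of 6 Trem2-Tyrobp and Fc receptor genes, 2 of 6 lysosomal genes and 1 of 2 pan-leukocyte genes were higher, and 0 of the 2 transcription factors tested passed.

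Ctss, the gene for the lysosomal protease cathepsin S, gave the smallest p. Its CPM ran from 39.3 to 134 with a median of 72.6 in ARC and from 22.4 to 54.5 with a median of 35.8 in PVN, on the scale of this paired fit. ARC was the higher member in all 15 pairs although the ranges overlapped, and the log2 difference was 0.99 (SE 0.12, adjusted p = 2.07e-07), or 1.99-fold. Olfml3, a secreted matrix-associated protein typical of microglia, had a median of 13.8 CPM in ARC (7.53 to 26.0) and 6.12 CPM in PVN (3.08 to 9.51). It was higher in ARC in 14 of 15 pairs, by 1.09 on the log2 scale (SE 0.19, adjusted p = 1.00e-04).

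The 3 C1q chains, which assemble into the first component of the classical complement cascade, were each called higher in ARC. C1qa had a median of 16.0 CPM in ARC and 8.95 CPM in PVN, C1qb of 14.2 and 8.11 CPM, and C1qc of 12.3 and 9.01 CPM. ARC was the higher member in 12, 13 and 13 of 15 pairs respectively, with ranges that overlapped for each gene. The log2 differences were 0.64 for C1qa (SE 0.21, adjusted p = 0.0278), 0.66 for C1qb (SE 0.18, adjusted p = 0.00791) and 0.80 for C1qc (SE 0.19, adjusted p = 0.00286). In the 8 chow-fed pairs alone none passed, at -0.055 for C1qa, 0.38 for C1qb and 0.52 for C1qc, and without scaling factors C1qa was not called (0.27, adjusted p = 0.287).

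Among receptor genes, the low-affinity IgG receptor gene Fcgr3 had a median of 5.62 CPM in ARC (1.79 to 27.8) and 2.58 CPM in PVN (0 to 10.2). It was higher in ARC in 14 of 15 pairs, by 1.37 (log2, SE 0.37, adjusted p = 0.00753). Ly86, which encodes a secreted partner of a Toll-like receptor relative, was higher in 13 pairs, by 1.02 (SE 0.31, adjusted p = 0.0191). The other genes called higher were Csf1r (log2 difference 0.30), Cx3cr1 (0.41), Aif1 (0.97), P2ry12 (0.43), P2ry13 (0.83) and the Fc receptor gamma chain gene Fcer1g (0.97), with adjusted p-values from 0.0463 to 0.138 and ARC higher in 10 to 13 pairs. Aif1 encodes Iba1, the actin-binding protein used to stain microglia. Tmem119, Trem2 and Tyrobp, also defining markers, gave log2 differences of 0.33 (SE 0.40), 0.66 (SE 0.46) and 0.58 (SE 0.40) and did not pass.

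Tgfb1, the cytokine gene, went the other way. It had a median of 4.25 CPM in ARC (0.906 to 25.0) and 5.65 CPM in PVN (1.24 to 103), and PVN was the higher member in 11 of 15 pairs. The log2 difference was -1.12 (SE 0.29, adjusted p = 0.00517). In the 7 HFD-fed pairs alone it was -0.38 and did not pass, and the high PVN values were all in chow-fed mice.

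**Figure D2:**
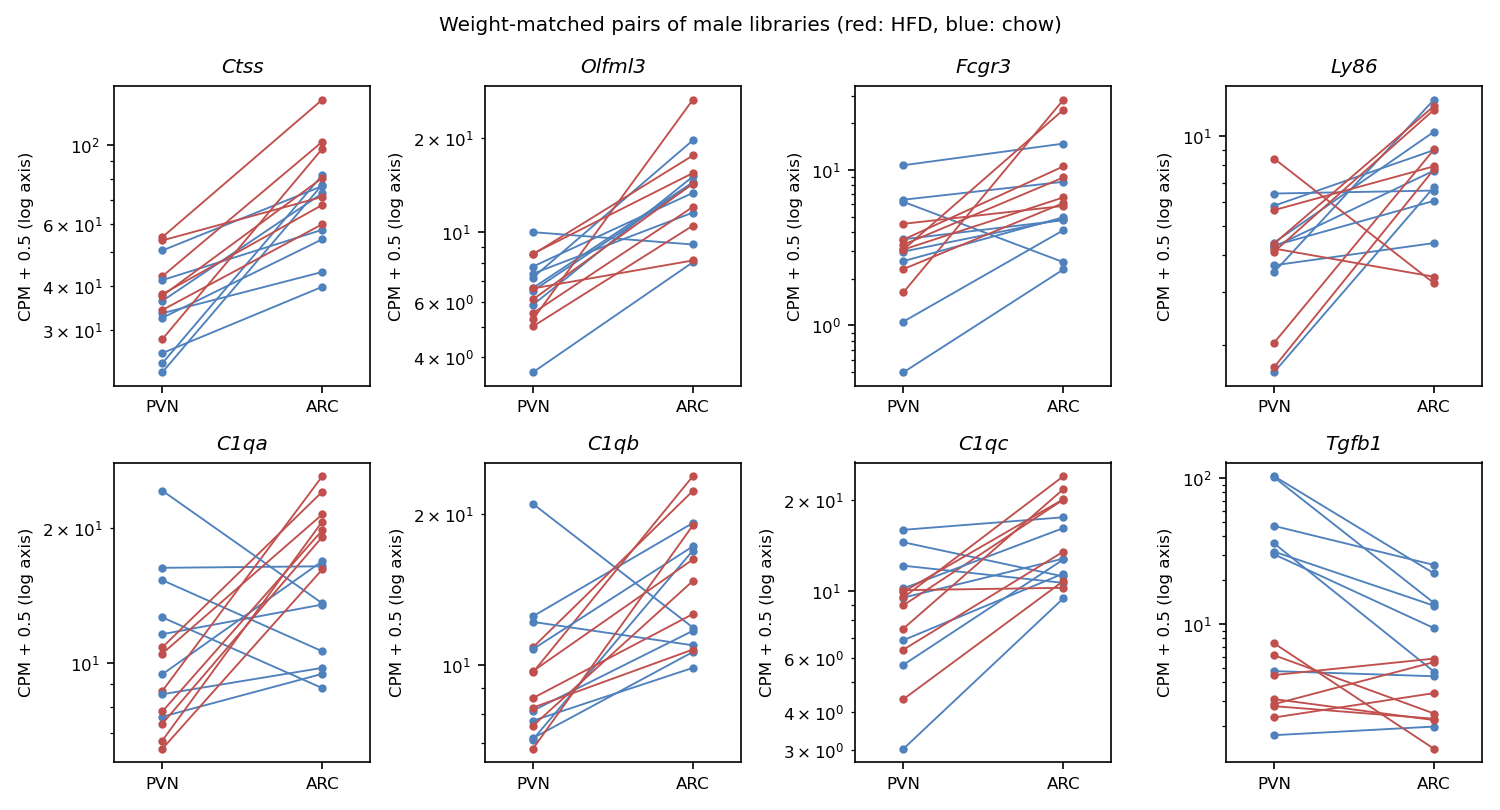
Level of 8 microglia genes in PVN and ARC, as CPM plus 0.5 on a log axis, with a line joining the 2 libraries of each of the 15 weight-matched male pairs (red, HFD; blue, chow). Ctss rises from PVN to ARC in all 15 pairs, while Tgfb1 falls steeply in several chow pairs.

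The count of higher and lower genes depended on how libraries were scaled. The 10 most abundant genes, among them the mitochondrial ribosomal RNAs mt-Rnr2 and mt-Rnr1, held 49.8 to 66.1% of counts in the ARC libraries and 37.6 to 56.7% in the PVN libraries of these pairs. TMM scaling, which sets a trimmed mean of log ratios between libraries to no change, had factors of 0.648 to 0.998 in ARC and 0.907 to 1.37 in PVN. Without scaling factors the median of all genes was -0.37 on the log2 scale, 6.23% of all genes were called higher and 61% lower in ARC, and 7 microglia genes were higher (Ctss, Olfml3, Fcgr3, C1qc, Ly86, C1qb and Aif1) and 4 lower (Tgfb1, Sall1, Inpp5d and Selplg). Relative to the median of all genes, 25 of the 30 stood above it under both scalings, and Csf1r turned from 0.30 to -0.074.

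Other cell types also differed between the nuclei. All 6 oligodendrocyte and 5 of 6 astrocyte markers were higher in ARC. All 5 endothelial markers were lower, as were 3 from the pericyte list of Pdgfrb, Kcnj8, Rgs5 and Abcc9. Of all genes, 21.5% were called higher and 20.6% lower in ARC, and without scaling factors 6.23% and 61%. Markers of border macrophages, which share many microglial genes, summed to 6.11 to 23.6 CPM over the 20 ARC libraries and 10.2 to 47.0 CPM over the 19 male PVN libraries. Of these 9 markers, Lyve1 was at 0 in 14 and Cd209f in 18 of the 20 ARC libraries, and in 6 and 17 of the 19 male PVN libraries. In ARC, Pf4, Cbr2 and Ms4a7 were at 0 in 13, 12 and 14 libraries, and Mrc1 and F13a1 in 1 each. Stab1 and Cd163 were above 0 in all 20 ARC libraries and reached 15.2 and 13.8 CPM. The 8 blood leukocyte markers summed to 0 to 11.8 CPM in ARC and 0 to 8.18 CPM in male PVN, and each was at 0 in 13 to 19 of the 20 ARC and 10 to 16 of the 19 male PVN libraries. Hbb-bs, a haemoglobin gene of red cells, was above 0 in all of them and reached 23.4 CPM in ARC and 38.0 CPM in male PVN. The CPM values in this paragraph were scaled within each table, so they are not compared between nuclei. The part of these cells in the difference between nuclei was not tested.

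On HFD, Tgfb1 was called lower in 3 of the 4 diet comparisons. In the PVN of wild-type mice it was at 113, 33.3 and 35.5 CPM on chow and between 2.14 and 4.75 CPM on HFD, with a median of 2.63 CPM over 6 mice. No HFD library reached the level of a chow library. It fell by 4.34 on the log2 scale (SE 0.64, adjusted p = 7.31e-04), or 20.2-fold, and was 1 of 33 microglia genes called, against 1.43% of all 17576 genes called (0.313% higher and 1.12% lower). At an adjusted p under 0.05 it was still the 1 called, against 0.148% of all genes. It was called with each of the 9 libraries left out in turn, with log2 values from -4.60 to -3.51, and also without Samples 15 and 24 together.

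In Nnat+/-p mice the PVN values of Tgfb1 were 35.4, 89.9 and 1.40 CPM in the non-obese chow group and 7.88, 2.30 and 6.44 CPM on HFD. The groups overlapped because of 1 low chow mouse, and the log2 change of -2.89 (SE 0.78, adjusted p = 0.369) did not pass. Without that mouse, Sample 22, it was -3.45 with an adjusted p of 0.00515, and without Sample 18 the adjusted p was 0.245. Of all genes, 0.091% were called in this comparison, and 0 of the 33 microglia genes, of which 3 had an unadjusted p under 0.05, against 6.5% of all genes.

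Tgfb1 was also lower on HFD in ARC. Wild-type ARC libraries had 19.4 and 8.01 CPM on chow and 0.755 to 4.72 CPM on HFD (median 2.09), without overlap, and Tgfb1 fell by 2.39 (SE 0.73, adjusted p = 0.239). This call was lost in 7 of 8 fits that left out 1 library, where adjusted p-values reached 0.990 without Sample 33. In Nnat+/-p mice the ARC values were 11.6, 44.3, 7.61 and 1.34 CPM in the non-obese chow group against 0.786, 3.16, 1.75 and 1.25 CPM on HFD. The lowest chow library fell within the HFD range, and Tgfb1 fell by 3.21 (SE 0.77, adjusted p = 0.0609), a call lost without Sample 39 (adjusted p = 0.297) or Sample 50 (adjusted p = 0.338). It was also lost with limma voom (adjusted p = 0.539) and in a fit of only the groups compared (0.324), and with Samples 39 and 40 summed Tgfb1 fell by 2.46 (adjusted p = 0.179).

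Chow-fed male mice varied widely in Tgfb1, from 1.40 to 113 CPM in PVN and from 1.34 to 44.3 CPM in ARC, and obese weight on chow did not come with uniformly low values. Obese chow PVN libraries had 4.66, 40.0, 110 and 52.5 CPM and obese chow ARC libraries 3.55, 3.84, 12.0 and 22.2 CPM. The male mouse of 27.4 g was low in both nuclei, at 1.40 CPM in PVN and 1.34 CPM in ARC, as was that of 38.8 g, at 4.66 and 3.55 CPM. Female chow PVN libraries, scaled in their own table, had 0 to 12.5 CPM.

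Tgfb1 moved apart from the rest of the list. As a description, its median Spearman correlation with 32 other microglia genes was 0.086 over the 19 male PVN libraries and -0.109 over the 20 ARC libraries. The genes most like it in both tables, of 14910 compared, were Gm16638 (0.85 in PVN and 0.84 in ARC), Arsg (0.82 and 0.81), Gm47791 (0.82 and 0.79), Fam83d (0.78 and 0.82) and Olfr411 (0.82 and 0.78). None of these is on a microglia list used here. Gm16638 ran from 2.78 to 573 CPM in chow PVN libraries and from 2.10 to 9.88 CPM on HFD.

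**Figure D3:**
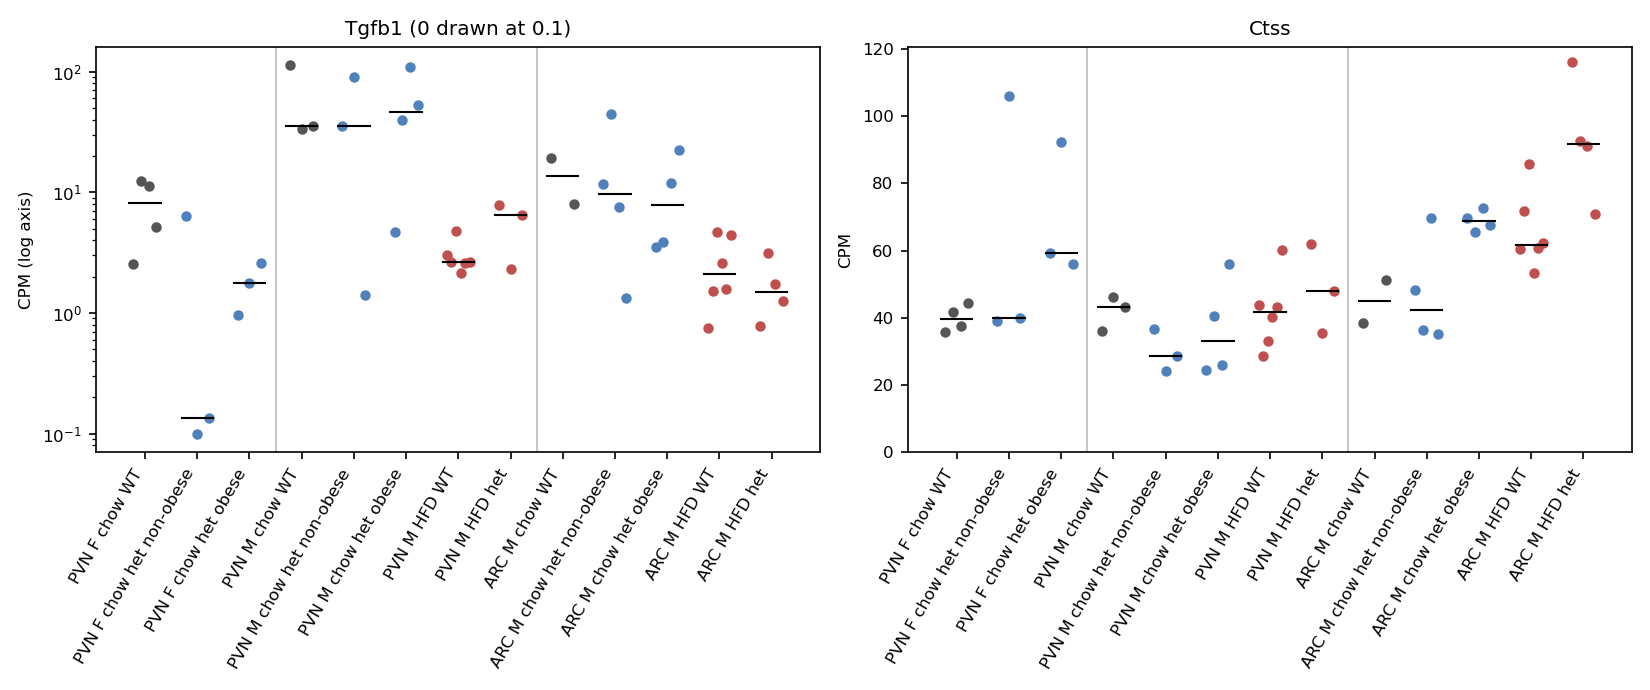
CPM of Tgfb1 (left, log axis, 0 drawn at 0.1) and Ctss (right, linear axis from 0) in each of the 49 libraries by group, with a black line at the group median; grey points are wild-type chow, blue Nnat+/-p chow and red HFD, and vertical lines separate the 3 count tables. Every HFD library of Tgfb1 lies at or below 7.88 CPM, and the 4 ARC Nnat+/-p HFD libraries of Ctss lie from 71.0 to 116 CPM.

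Ctss was the one microglia gene that rose on HFD and passed the test. In the ARC of Nnat+/-p mice it was at 48.4, 36.5, 69.9 and 35.3 CPM in the non-obese chow group and at 116, 92.7, 91.1 and 71.0 CPM on HFD. All 4 HFD libraries were above all 4 non-obese chow libraries, by a narrow margin for the closest pair. The log2 change was 0.95 (SE 0.20, adjusted p = 0.0240), or 1.93-fold, and it was called with each of the 8 libraries left out (adjusted p = 0.00585 to 0.168) and with Samples 39 and 40 summed (adjusted p = 0.0450). The call was lost without scaling factors (0.70, adjusted p = 0.275) and with all labelled libraries (0.95, adjusted p = 0.445). The latter fit put back the low-depth Sample 35. Ctss and Tgfb1 were the 2 genes called of 33 tested, against 2.44% of all 15753 genes (1.74% higher and 0.705% lower), and at an adjusted p under 0.05 Ctss was the 1 called, against 0.273% of all.

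In wild-type ARC, Ctss was at 38.6 and 51.3 CPM on chow and at 53.2 to 85.9 CPM on HFD (median 61.6). The groups did not overlap, but the closest libraries were 51.3 and 53.2 CPM and the log2 change of 0.55 (SE 0.24) had an unadjusted p of 0.0279 and did not pass. The obese chow-fed Nnat+/-p mice had 69.7, 65.7, 72.6 and 67.7 CPM of Ctss in ARC, within the wild-type HFD range and below 3 of the 4 Nnat+/-p HFD libraries. In male PVN the values of Ctss were 36.2, 46.1 and 43.3 CPM in wild-type chow mice and 28.5 to 60.1 CPM in wild-type HFD mice, so that HFD values lay on both sides of chow values.

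Other microglia genes leaned upward in ARC on HFD without passing. In wild-type mice 25 of 33 genes were above 0, against 51.4% of all genes, with a median log2 change of 0.28 against 0.02 for all genes. An unadjusted p under 0.05 was reached by 7 of the 33 and by 8.54% of all genes. Tgfb1 was the only call, against 1.16% of all 15753 genes (0.495% higher and 0.66% lower), and 0 microglia genes passed at an adjusted p under 0.05, against 0.0317% of all. In Nnat+/-p mice 27 of 33 were above 0, against 46.5% of all genes, with a median of 0.31 against -0.03, and 5 had an unadjusted p under 0.05, against 10.1% of all genes. With Samples 39 and 40 summed, the Nnat+/-p median was 0.54. These 2 comparisons share no libraries, but all ARC libraries were fitted together with a common estimate of spread.

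By role, the lysosomal and phagocytic genes leaned furthest in wild-type ARC, with 6 of 6 above 0 and a median of 0.69, and their summed level was 63.0 and 69.1 CPM on chow and 82.6 to 128 CPM on HFD. In Nnat+/-p ARC the same sum was 54.3 to 97.3 CPM in the non-obese chow group, 90.6 to 105 CPM in the obese chow group and 102 to 145 CPM on HFD. The surface genes had medians of 0.14 and 0.29 in the wild-type and Nnat+/-p comparisons, and the C1q chains 0.28 and 0.17. Summed surface genes reached 89.6 and 93.9 CPM in wild-type chow ARC and 77.0 to 99.5 CPM on HFD, ranges that overlap in full.

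Single genes with the smallest p-values in wild-type ARC after Tgfb1 were Fcer1g, Unc93b1 and Ctss. Fcer1g was at 0.266 and 1.00 CPM on chow and at 2.39 to 6.03 CPM on HFD (median 3.46), which rests on 5 counts in the chow group against 131, a ratio of 4.82 with an exact 95% counting interval of 2.02 to 15.1. Its log2 change was 2.49 (SE 0.84, adjusted p = 0.301). Unc93b1, which carries nucleic acid sensing Toll-like receptors to endosomes, was at 3.72 and 2.5 CPM on chow and 5.66 to 8.48 CPM on HFD, a log2 change of 1.25 (SE 0.51, unadjusted p = 0.0209). P2ry12 and Sall1 had the smallest p-values among the genes below 0, with log2 changes of -0.46 each.

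C1qa in wild-type ARC was at 8.24 and 11.8 CPM on chow and 13.8 to 18.9 CPM on HFD, without overlap and without a call. In Nnat+/-p ARC, Fcer1g was at 1.29, 6.17, 3.12 and 2.82 CPM in the non-obese chow group and at 8.65, 8.29, 6.77 and 7.09 CPM on HFD, again without overlap, with a log2 change of 1.27 (SE 0.57, unadjusted p = 0.0325). Fcgr3 changed by 1.33 (SE 0.61, unadjusted p = 0.0363) and did not pass. Selplg, a ligand of selectins, and Itgam gave -0.31 and -0.43.

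Levels of some markers of other cells also differed with diet in the same ARC libraries. Wild-type chow ARC libraries had summed ARC neuron markers (Pomc, Agrp, Npy, Ghrh and Tbx3) of 42.5 and 48.8 CPM against 94.8 to 566 CPM on HFD, and oligodendrocyte markers of 772 and 896 CPM against 259 to 639 CPM. The oligodendrocyte genes Mbp and Mobp fell on HFD by 1.09 and 1.25 (log2), and the ARC neuron gene Tbx3 rose by 2.30. In Nnat+/-p ARC all 5 ARC neuron genes rose on HFD, with summed levels of 11.9 to 102 CPM in non-obese chow mice and 154 to 340 CPM on HFD. Summed oligodendrocyte markers overlapped there, at 540 to 793 CPM in non-obese chow mice and 519 to 781 CPM on HFD. Whether these levels reflect the tissue captured or regulation of the genes was not tested. The part of capture position in the values of the microglia genes was not tested.

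The PVN showed no upward lean on HFD. In wild-type mice 7 of 33 microglia genes were above 0 and 26 below, against 47.5% of all genes above 0, with a median log2 change of -0.41 against -0.03. Without Samples 15 and 24 the median was -0.30. The share of all genes at an unadjusted p under 0.05 was 10.3%. The C1q chains (0 of 3 above 0, median -0.43), the lysosomal genes (0 of 6, median -0.36) and the transcription factors (0 of 3, median -0.88) were all below 0, and none of these genes passed. C1qa was at 8.80, 26.6 and 11.8 CPM on chow and 5.44 to 11.9 CPM on HFD (median 7.64), a log2 change of -0.97 (SE 0.37, adjusted p = 0.346), and the groups overlapped. Sall1, a transcription factor that in the adult brain marks microglia, gave -0.88 (SE 0.40, unadjusted p = 0.0326).

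Hcls1, a haematopoietic actin regulator, was the strongest exception in PVN, at 0.251, 0.426 and 0 CPM on chow and 0.750 to 3.65 CPM on HFD in wild-type mice. The chow level rests on 3 counts in all against 78, a ratio of 8.68 (exact 95% counting interval 2.86 to 43.0), and the adjusted p was 0.281. In Nnat+/-p mice 13 of 33 genes were above 0 in PVN on HFD, against 45% of all genes, with a median of -0.20 against -0.07, and of -0.22 without Samples 15 and 24. The smallest p-values were those of Ctss at 0.70 (SE 0.31, unadjusted p = 0.0291), at 62.0, 35.5 and 48.0 CPM on HFD against 36.6, 24.1 and 28.5 CPM, and of Sall1 at -1.09 (SE 0.48, unadjusted p = 0.0288). HFD libraries of male PVN were deeper, with 5582716 to 8560199 counts against 2268021 to 6139659 on chow, and the part of depth was not tested.

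Whether the response to diet differed between the nuclei was tested directly, over 34 microglia genes, as the HFD change in ARC minus that in PVN. The median of this difference was 0.54 in wild-type mice (all genes 0.08) and 0.36 in Nnat+/-p mice (all genes 0.00), with 29 and 23 of 34 genes above 0, against 54% and 50.1% of all genes. No microglia gene passed, with 3 in each genotype at an unadjusted p under 0.05, which 5.62% and 7.17% of all genes reached, and 0.0187% and 0.00935% of all 21400 genes were called. The genes with the smallest p were C1qa (1.72, SE 0.53, unadjusted p = 0.00189, adjusted p = 0.860) and Unc93b1 (2.02, SE 0.78) in wild-type mice and Tmem119 (2.48, SE 0.96) in Nnat+/-p mice. Without Samples 15 and 24 the medians were 0.50 and 0.35. That fit did not use the pairing of the nuclei by weight. With the pair as a block, over 5 HFD and 2 chow pairs of wild-type and 2 and 2 pairs of Nnat+/-p mice, 0 of 30 microglia genes passed in either genotype, against 0.242% and 0.0242% of all 12421 genes, and the medians were 0.64 and 0.68. C1qa again had the smallest p in wild-type mice (1.78, SE 0.51, adjusted p = 0.256), followed by Tgfb1 (2.27, SE 0.68, adjusted p = 0.281). In the paired comparison of the nuclei, which shares these libraries, C1qa was higher in ARC by 1.39 in the HFD-fed pairs alone (adjusted p = 4.96e-05) and gave -0.055 in the chow-fed pairs alone.

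The level of the whole list followed the same pattern, given as a description. In ARC the mean log2 CPM of the 35 genes was 2.01 ± 0.14 (SD, n = 2) in wild-type chow mice, 2.11 ± 0.18 (n = 4) in non-obese and 2.22 ± 0.15 (n = 4) in obese Nnat+/-p mice on chow, 2.38 ± 0.13 (n = 6) in wild-type HFD mice and 2.48 ± 0.19 (n = 4) in Nnat+/-p HFD mice. Wild-type chow and HFD libraries did not overlap, at 1.91 and 2.11 against 2.23 to 2.55. In male PVN it was 2.37 ± 0.24 (n = 3) in wild-type chow mice, 2.40 ± 0.31 (n = 3) and 2.14 ± 0.41 (n = 4) in non-obese and obese Nnat+/-p mice on chow, 2.16 ± 0.10 (n = 6) in wild-type HFD mice and 2.19 ± 0.11 (n = 3) in Nnat+/-p HFD mice.

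The PVN groups overlapped on this mean, with wild-type chow libraries at 2.12 to 2.61 and HFD libraries at 2.06 to 2.32. With Tgfb1 left out, wild-type ARC libraries lay at 1.84 and 2.08 on chow and 2.25 to 2.55 on HFD, and wild-type PVN libraries at 1.98 to 2.54 and 2.08 to 2.34. Summed CPM, to which Ctss adds most, was 230 and 253 in wild-type chow ARC and 258 to 333 on HFD, and 293 to 405 in wild-type chow PVN and 202 to 260 on HFD. Of this PVN sum, the cytokine genes (Tgfb1, Tnf and Il1b) made up 33.3 to 113 CPM on chow and 2.60 to 5.05 CPM on HFD. The sum without Tgfb1 was not compared. In the Nnat+/-p groups the sums overlapped in PVN (220 to 402 in non-obese chow, 235 to 284 on HFD), and in ARC they touched, at 207 to 313 in non-obese chow and 313 to 404 on HFD. Each nucleus was scaled on its own table, so levels are compared here only within a nucleus.

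**Figure D4:**
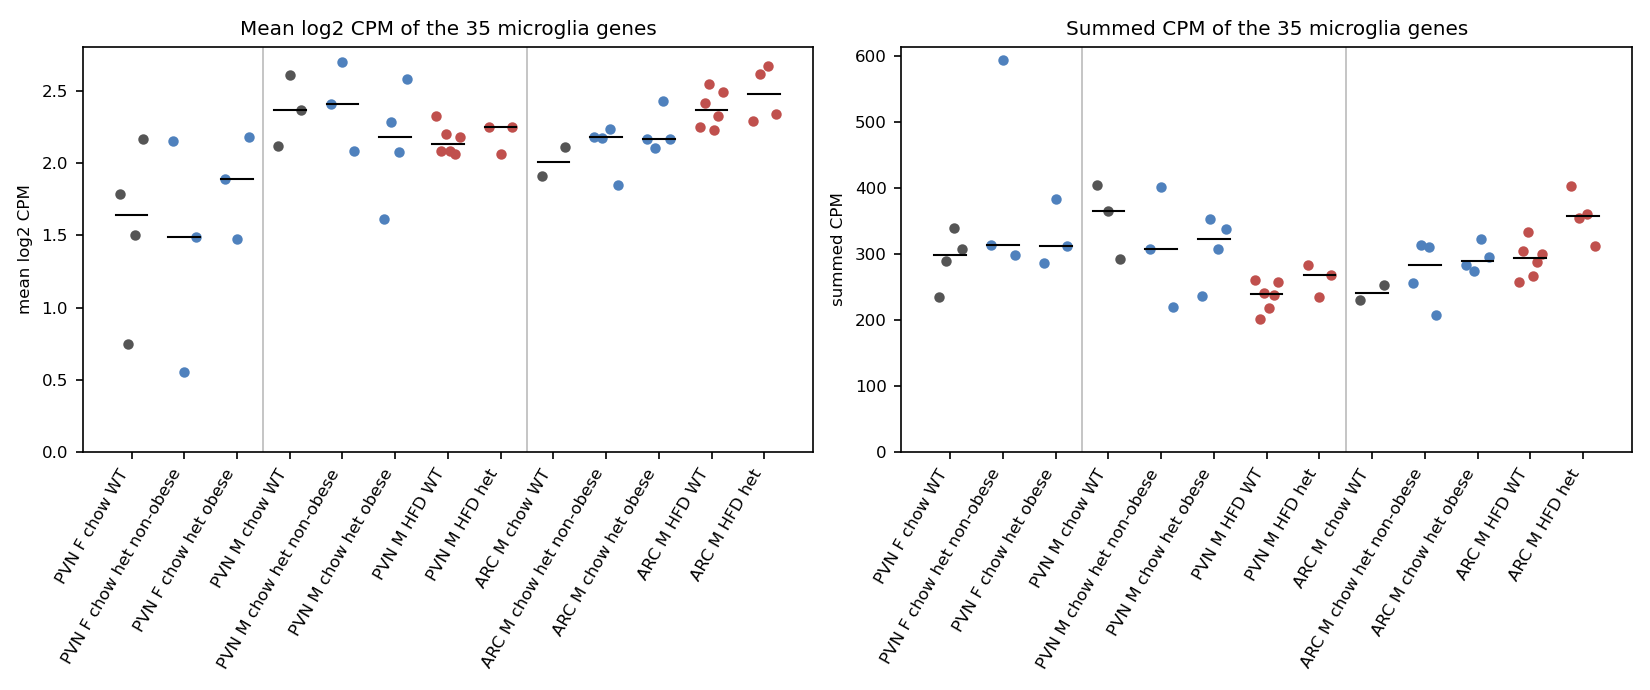
Mean log2 CPM (left) and summed CPM (right) of the 35 microglia genes in each of the 49 libraries by group, with a black line at the group median; grey points are wild-type chow, blue Nnat+/-p chow and red HFD, and vertical lines separate the 3 count tables. In ARC the wild-type HFD libraries (mean 2.23 to 2.55) lie above the 2 wild-type chow libraries (1.91 and 2.11). In male PVN these groups overlap on the mean but not on the sum, where chow libraries (293 to 405 CPM) lie above HFD libraries (202 to 260 CPM). This sum includes Tgfb1, and the sum without it was not compared.

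On chow, no microglia gene passed in any of the 9 comparisons between wild-type, non-obese and obese Nnat+/-p mice. Few genes of any kind passed there: 0.0256%, 0.0128% and 0% of 15618 genes in male PVN for obese against wild type, non-obese against wild type and obese against non-obese, 0.0129%, 0.00646% and 0% of 15485 in female PVN, and 0.0205%, 0.0136% and 0.00682% of 14658 in ARC. Nnat itself was called in all 6 comparisons with wild type. Of 294 tests of microglia genes, 7, or 2.38%, had an unadjusted p under 0.05, and the smallest adjusted p was 0.548. Of all genes, in the same order of comparisons, 3.52%, 2.56% and 1.66% had such a p in male PVN, 3.18%, 4% and 3.06% in female PVN and 2.59%, 1.9% and 4.25% in ARC. The 3 comparisons of each table share groups, so their values are given side by side and not as separate evidence.

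In male PVN, the median log2 difference of the 33 genes was -0.30 for obese against wild type, with 9 above 0, -0.19 for non-obese against wild type, with 13 above 0, and 0.03 for obese against non-obese, with 17 above 0. Of all genes, 49%, 49.5% and 49.5% were above 0. Without Samples 15 and 24 the medians were -0.35, -0.29 and 0.03. The smallest p belonged to Hcls1, at 0.251, 0.426 and 0 CPM in wild-type mice, 5.11, 1.23 and 5.39 CPM in non-obese and 16.2, 9.35, 2.29 and 9.17 CPM in obese Nnat+/-p mice. All Nnat+/-p libraries were above all wild-type libraries, but the wild-type level rests on 3 counts, and the ratios were 46.3 for obese (171 counts, exact 95% counting interval 15.6 to 227) and 20.9 for non-obese mice (55 counts, 6.77 to 104). The edgeR adjusted p for obese against wild type was 0.548, while DESeq2 gave 0.0209, and a fit over all genes with a total count above 1 gave 0.0586. Without Samples 15 and 24 the log2 difference was 4.68 with an edgeR adjusted p of 1. In ARC, Hcls1 was at 0 and 0.751 CPM in wild-type mice and at 0.200 to 5.41 CPM in the 8 chow-fed Nnat+/-p mice, with overlap.

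Tmem119, a surface protein used to tell microglia from other macrophages, was at 6.75, 15.5 and 13.6 CPM in non-obese mice, 0, 2.57, 5.56 and 4.17 CPM in obese mice and 5.78, 3.20 and 2.91 CPM in wild-type mice of the male PVN table. Non-obese libraries were above all others, and the difference between obese and non-obese mice, -1.96 on the log2 scale (SE 0.93, unadjusted p = 0.0440), did not pass. C1qa differed between obese and non-obese mice by 0.92 and from wild type in non-obese mice by -0.99, and Ptprc, the pan-leukocyte phosphatase CD45, by -1.98 between obese and wild-type mice, without a call. The other genes with the smallest p-values on either side were Selplg (0.74) and Fcgr3 (1.57) above 0 and Sall1 (-0.76) and Itgam (-1.33) below 0 for obese against wild type.

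In ARC the list leaned the other way on chow, with medians of 0.17 (24 of 33 above 0) for obese and 0.21 (22 of 33) for non-obese Nnat+/-p against wild-type mice and 0.09 (20 of 33) for obese against non-obese. Of all genes, 52.4%, 52.9% and 49.5% were above 0. Ctss, given above, had the smallest p for obese against wild type, at 0.61 (SE 0.26, unadjusted p = 0.0265), and for obese against non-obese, at 0.52 (SE 0.21, unadjusted p = 0.0190). P2ry12 was at 10.9, 9.60, 19.2 and 12.8 CPM in obese and 13.9, 6.74, 3.37 and 6.84 CPM in non-obese mice, and Ptprc at 2.84, 1.92, 6.98 and 6.81 CPM against 1.48, 2.81, 1.12 and 0 CPM, in both cases with overlap. Fcer1g was above wild type by 2.23 in obese and 2.31 in non-obese mice, where the wild-type level rests on 5 counts. With 2 wild-type ARC libraries these values are imprecise. Summed ARC neuron markers also differed between these chow groups. They were at 110 to 146 CPM in obese mice, 42.5 and 48.8 CPM in wild-type mice and 11.9 to 102 CPM in non-obese mice. The part of capture position in the chow results was not tested.

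The astrocyte marker Gfap rose in the ARC of obese Nnat+/-p mice on chow, by 2.84 against wild type (SE 0.46, adjusted p = 0.0149), and in wild-type mice on HFD, by 1.90 (SE 0.56, adjusted p = 0.231). It was at 28.8 and 32.2 CPM in wild-type chow mice, 171 to 298 CPM in obese chow mice and 47.1 to 211 CPM in wild-type HFD mice. None of the 33 microglia genes was called beside it in obese chow ARC. The summed level of the astrocyte markers, Gfap included, overlapped between these groups. It was 1625 and 1899 CPM in wild-type chow mice, 1503 to 1760 CPM in obese chow mice and 1387 to 1963 CPM in wild-type HFD mice.

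Female PVN libraries gave medians of -0.11, -0.13 and -0.30 for obese against wild type, non-obese against wild type and obese against non-obese, each with 15 of 32 genes above 0, against 46.9%, 44.5% and 53.1% of all genes. Without Samples 2 and 10 the medians were -0.14, -0.19 and -0.0098, so the third rests on these libraries, and with 1 library left out it ran from -0.18 to 0.18. The smallest p-values were those of Selplg for non-obese against wild type (2.33, SE 0.99, unadjusted p = 0.0309) and of Spi1 for obese against non-obese (5.56, SE 2.49, unadjusted p = 0.0402). Spi1 in the non-obese group rests on 3 counts against 78, a ratio of 31.0 (exact 95% counting interval 10.2 to 153). Ctss was at 35.8, 41.6, 37.5 and 44.4 CPM in wild-type, 39.1, 106 and 39.8 CPM in non-obese and 59.4, 92.2 and 56.1 CPM in obese females, so obese libraries lay above all wild-type libraries (log2 difference 0.80, SE 0.40, unadjusted p = 0.0606). Sample 10, the non-obese library with 106 CPM, lacked counts for 18 of the 35 genes and had 108 CPM of Inpp5d, a phosphatase that damps Fc receptor signalling, against 5.81 and 10.5 CPM in the other 2 of its group. Without Samples 2 and 10, Inpp5d turned from 1.63 to -0.37 against wild type.

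On HFD, Nnat+/-p and wild-type mice were compared in each nucleus. In PVN the median was -0.05, as for all genes, and -0.0053 without Samples 15 and 24, with 16 of 33 above 0 (42% of all genes) and 0 at an unadjusted p under 0.05 (0.99% of all genes), and 0.00569% of all genes were called. The smallest p-values were those of Csf1r (0.47), Tgfb1 (0.90) and C1qb (0.51) above 0 and Irf8 (-0.85), Unc93b1 (-0.52) and Laptm5 (-0.39) below. In ARC the median was 0.15 against -0.02 for all genes, with 22 of 33 above 0 (47.9% of all genes) and all 10 surface genes above 0 (median 0.33), no call, and 0.0127% of all genes called (4.54% at an unadjusted p under 0.05). Ctss was again first, at 71.0 to 116 CPM in Nnat+/-p against 53.2 to 85.9 CPM in wild-type mice with overlap (0.49, SE 0.18, unadjusted p = 0.00907, adjusted p = 0.999), followed by Fcrls (1.00, SE 0.42) and Fcer1g (1.05, SE 0.50). The difference of the diet response between genotypes gave no call among the 33 genes, with 2 at an unadjusted p under 0.05 in PVN (C1qa at 1.40 and Hcls1 at -4.19) and 0 in ARC, against 3.84% and 3.9% of all genes. Of all genes, 46% and 47.4% were above 0 in this difference, and 0% in PVN and 0.0127% in ARC were called.

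**Figure D5:**
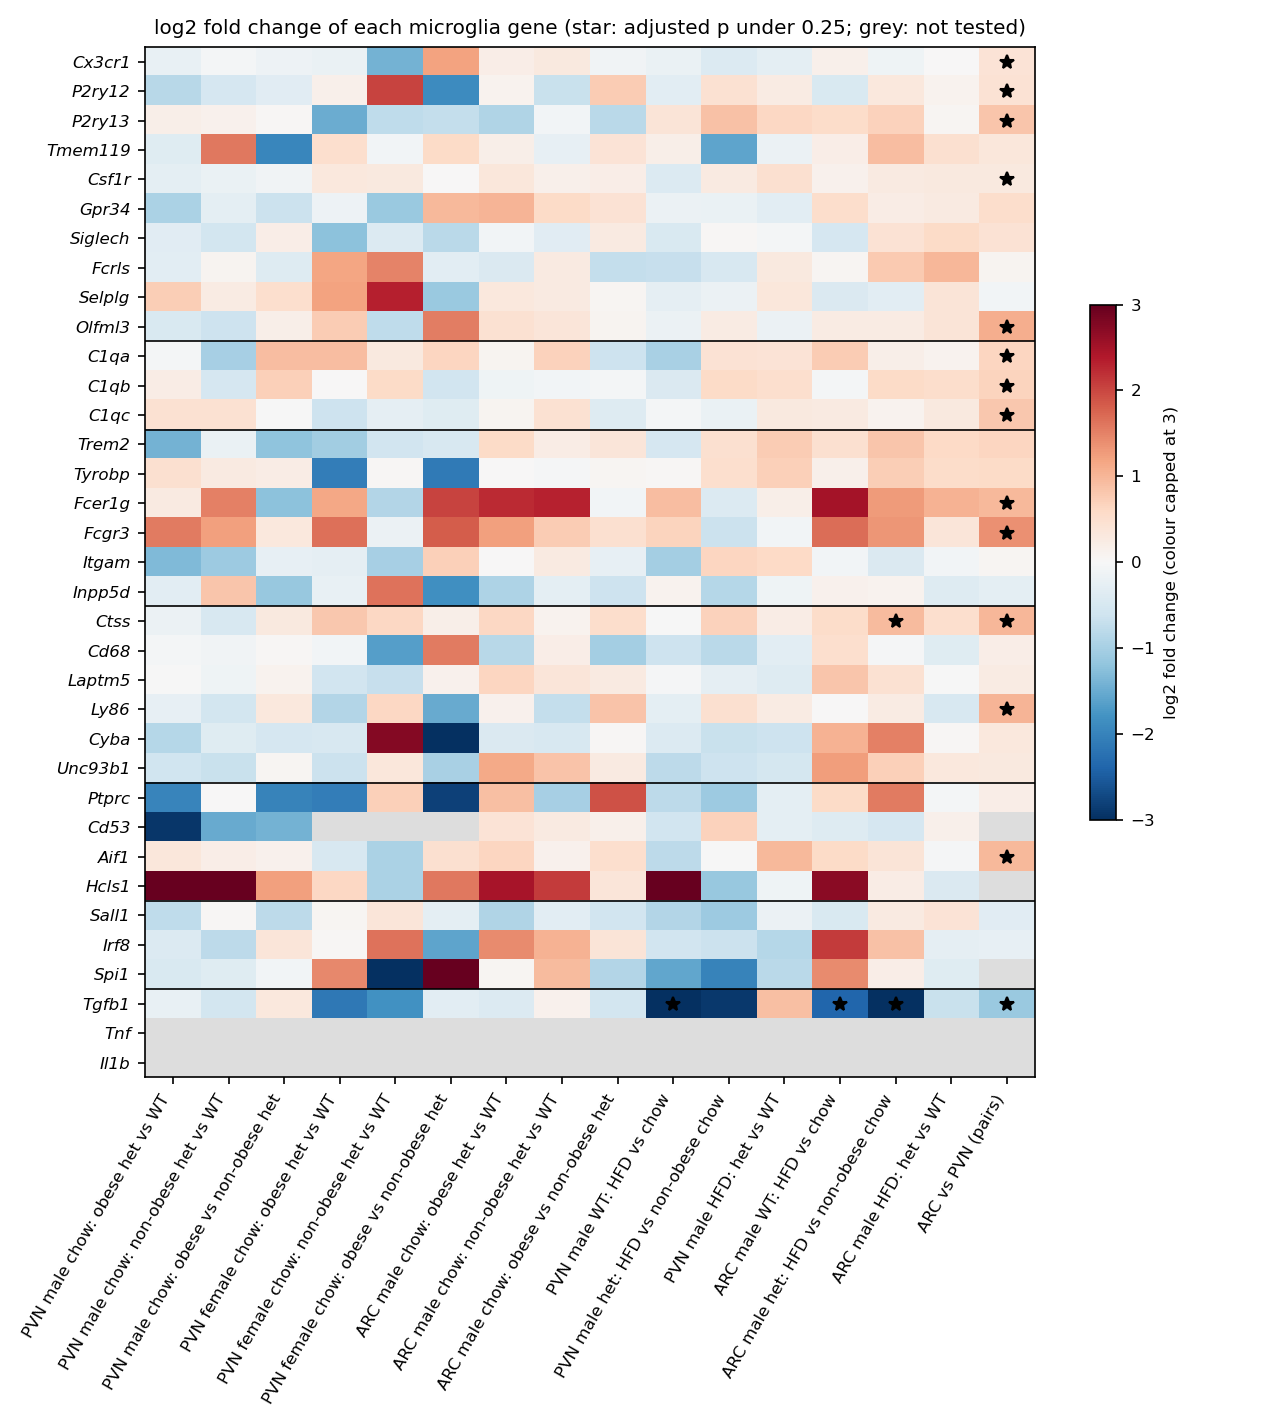
Heat map of the log2 fold change (colour, capped at 3) of the 35 microglia genes (rows, grouped by role with lines between roles) in 16 comparisons (columns); a star marks an adjusted p under 0.25 and grey a gene that was not tested. Stars stand in 4 columns: 14 for ARC against PVN, 1 for diet in wild-type PVN, 1 for diet in wild-type ARC and 2 for diet in Nnat+/-p ARC.

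Other lists of microglial and immune genes, chosen like the 35 with earlier results known, were read in the same fits. Of 16 other microglia genes such as Mertk, 0 were called in any diet or chow comparison. In ARC against PVN, where 42.1% of all genes were called, Tgfbr1 was called higher and Slco2b1 lower. Of 16 genes that microglia raise in disease, 1 of 13 tested rose on HFD in wild-type ARC, the cathepsin L gene Ctsl (0.75, adjusted p = 0.240), and 2 in Nnat+/-p ARC, B2m (0.74, adjusted p = 0.138) and the lysosomal tetraspanin gene Cd63 (1.12, adjusted p = 0.159), against 1.16% and 2.44% of all genes called. None was called in PVN on HFD.

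Among MHC class II genes, which present antigen, 1 of 4 tested, Cd74, rose in Nnat+/-p ARC on HFD by 3.13 (adjusted p = 0.154). It was at 0.561 to 1.21 CPM in non-obese chow mice and 4.72 to 12.0 CPM on HFD, without overlap, and at 0 to 10.2 CPM in wild-type HFD mice. The other 3 gave log2 changes of 3.13 (H2-Aa), 2.10 (H2-Ab1) and 1.83 (H2-Eb1) and did not pass, and the summed level of the list overlapped, at 1.34 to 14.6 CPM in non-obese chow mice and 6.95 to 19.3 CPM on HFD. Of the interferon response genes, 0 of 8 tested were called in any diet comparison, although 8 of 8 were above 0 in Nnat+/-p ARC, against 46.5% of all genes, with a median of 0.83. Inflammatory signalling genes, a list with the Toll-like receptor genes Tlr2 and Tlr4, the NF-kappaB subunit gene Rela and the cytokine gene Il6, gave 0 calls in every comparison within a nucleus, and the microglia ligand genes, such as Il34, Csf1 and Cx3cl1, gave 0 in the diet comparisons.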

How the data were processed

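Total RNA from laser-captured nuclei was prepared with a stranded low-input kit, sequenced and aligned by the authors. The submitters' processing notes name STAR 2.5.0a and the mouse build GRCm38. The deposited values are raw counts per Ensembl gene in 3 tables, and the counting tool, its annotation and its use of strand are not given in the sources used here. Gene symbols and overlaps were taken from GENCODE M21. Every column of the tables was matched to a sample, so 0 columns were set aside. Samples 5, 7 and 35 were left out for their low depth and Sample 32 because its title names ARC while its counts stand in the PVN table.

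From these counts, edgeR 4.0.16 (R 4.3.3) was run with TMM scaling, a filter on low counts (filterByExpr, min.count 10) and the quasi-likelihood test, over all genes that passed the filter. P-values were two-sided and adjusted by Benjamini-Hochberg over all genes tested, and a gene was called at an adjusted p under 0.25. Adjusted p-values in the text are edgeR's unless DESeq2 (1.42.0) is named. Chow comparisons were fitted over the 3 chow groups of a table and diet comparisons over the 5 male groups of a nucleus. ARC and PVN were compared with genotype, diet and labelled weight as a block over the 15 combinations that occur once in each table, so pairing comes from the weight. CPM used TMM library sizes of each table, and the mean of the 35 genes is taken over log2 CPM values, prior count 2. For the comparison of nuclei, CPM came from the scaling of that joint fit. Depth was 1479953 to 30228973 counts per library. Intervals and limits from counts cover counting error only. Of 76 pairs of libraries within groups 0 were identical, and the lowest chi-square per degree of freedom was 8.36, so none agreed within sampling noise.

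The 35 genes and all other lists were chosen with earlier results of these data known. Described singly were genes called in a comparison, the 3 with the smallest p on each side in each comparison (grouped or given only in the heat map where they add no more), the 10 defining markers Cx3cr1, P2ry12, Tmem119, Csf1r, C1qa, C1qb, C1qc, Aif1, Trem2 and Tyrobp, called genes of the other lists, the 10 genes most correlated with the mean, and Nnat. Values of some called genes outside the 35 are not reported here. The fits were tested on simulated data with known changes. Alternatives were other scalings, filters, thresholds and tools (limma 3.58.1 voom with sample weights, DESeq2), each library left out in turn, and the choices of libraries named in the closing section. Labelled weights conflicted for Samples 24, 30, 44 and 51, which are not among the pairs. In wild-type HFD mice 42.9 g stood in PVN and 43.9 g in ARC, and in Nnat+/-p HFD mice the reverse. With all labelled libraries, the low-depth Samples 5, 7 and 35 were put back. The comparison of the diet response between nuclei (also with the pair as a block), pairs taken by diet, Samples 2 and 10 left out, the mean without Tgfb1, the genes like Tgfb1 and fits without scaling factors were added after seeing the data.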

Additional observations from a re-analysis of the deposited data

Results flagged for a closer look

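Among 133 sets of 4 to 10 libraries of 1 group checked (the defining markers, the genes called and the mean of the list), 9 held a library that stood apart from the rest of its group by Dixon's 95% criterion, where chance alone gives about 1 in 20. In female wild-type PVN, C1qb was at 8.15 CPM in Sample 1 against 17.3 to 18.2 CPM in the other 3, and Trem2 was at 24.5 CPM in Sample 2 against 0 to 1.45 CPM. In the ARC of HFD-fed mice, Trem2 was at 9.43 CPM in Sample 50 (Nnat+/-p) against 1.97 to 2.76 CPM, Tyrobp at 7.08 CPM in Sample 49 (wild type) against 0 to 2.59 CPM, and Fcgr3 at 21.3 CPM in Sample 45 (wild type) against 4.53 to 8.81 CPM. In the ARC of chow-fed Nnat+/-p mice, Tyrobp was at 4.61 CPM in Sample 42 (obese) against 1.31 to 1.75 CPM, and the mean log2 CPM of the 35 genes was 1.85 in Sample 43 (non-obese) against 2.17 to 2.23. In male PVN, Tgfb1 was at 4.75 CPM in Sample 25 (wild type on HFD) against 2.14 to 3.04 CPM, and Fcer1g was at 5.84 CPM in Sample 21 (obese Nnat+/-p on chow) against 0 to 0.917 CPM. Sample 43 also had 11.9 CPM of summed ARC neuron genes, against 51.1 to 102 CPM in the rest of its group. Its summed PVN neuron genes were at 47.6 CPM, against 8.11 to 29.2 CPM. What sets the flagged libraries apart was not tested.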

How the results depend on the processing

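No paired analysis was possible because the replicate numbers of the labels are not shared between groups, for the comparisons within a nucleus. For ARC against PVN, pairing came from the weight. A fit with no replicate block called 12 of the microglia genes, with a median of 0.29, and Aif1, P2ry12, P2ry13 and Fcer1g were no longer called. It ran over all used male libraries with each group weighted equally, so it differed from the paired fit in its libraries too. Of the single-gene results, 2068 values under an alternative kept direction and side of the threshold, 47 fell short of it, 27 newly passed it and 14 changed sign. The cause was not tested where none is named.

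At an adjusted p under 0.05, 9 genes were called in ARC against PVN, 1 on HFD in Nnat+/-p ARC (Ctss) and 0 in wild-type ARC. In wild-type ARC on HFD, RLE scaling and leaving out libraries with conflicting weights gave 0 calls, all labelled libraries 2 (Unc93b1 and Fcer1g), Samples 39 and 40 (equal labelled weight) summed 2, and a fit of only the groups compared 4 (Tgfb1, Laptm5, Unc93b1 and Fcer1g). DESeq2 called Fcer1g there and not Tgfb1 (adjusted p = 0.378). In Nnat+/-p ARC, calls numbered 1 without scaling factors and with all labelled libraries (Tgfb1), and 1 with voom and with only the groups compared (Ctss). In wild-type PVN on HFD, DESeq2 called 3 (Tgfb1, Hcls1 and C1qa) and a filter on a total count above 1 called 2. In Nnat+/-p PVN on HFD, 1 gene, Tgfb1, was called without scaling factors, with the looser filter and without Samples 15 and 24. DESeq2 and the looser filter each called 1, Hcls1, for obese against wild type in male PVN, and all labelled libraries called 2 (P2ry12 and Selplg) in female PVN, where 936 genes of all were then called. Chow-fed pairs alone gave 6 calls in ARC against PVN.

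Median log2 values moved as follows. Non-obese against wild type in ARC gave 0.43 without scaling factors and 0.51 with all labelled libraries, obese against wild type in ARC 0.46 with all labelled libraries, and HFD against chow 0.56 in wild-type ARC with all labelled libraries and 0.54 in Nnat+/-p ARC with Samples 39 and 40 summed. Genotype on HFD in PVN gave 0.0872 without libraries of conflicting weight, the diet by genotype difference in ARC 0.32 with voom and -0.22 with all labelled libraries, and ARC against PVN 0.0402 without scaling factors. On the log2 of summed CPM (Tgfb1 included) in place of mean log2 CPM, the difference was -0.23 for obese against non-obese females, -0.58 for HFD in wild-type PVN, and 0.15 in PVN and 0.29 in ARC for genotype on HFD.

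With 1 library left out, medians ranged from -0.36 to 0.0940 for non-obese against wild type in male PVN (highest without Sample 22), from -0.14 to 0.43 for obese against wild type in females (highest without Sample 3), from 0.12 to 0.32 and from 0.0440 to 0.29 for obese and non-obese against wild type in ARC (Samples 34 and 40), from -0.43 to -0.15 for HFD in Nnat+/-p PVN (Sample 22), from -0.0900 to 0.15 for genotype on HFD in PVN, from 0.21 to 0.44 and from 0.26 to 0.53 for HFD in wild-type and Nnat+/-p ARC (Samples 34 and 38), and from -0.22 to 0.10 for the diet by genotype difference in ARC (Sample 34). Calls ranged from 1 to 2 in wild-type PVN on HFD (2 without Sample 14 or 15), from 0 to 1 in Nnat+/-p PVN, from 0 to 1 in wild-type ARC and from 1 to 3 in Nnat+/-p ARC. Without Sample 33 or 34 wild-type chow ARC is 1 library, assumed to vary like the other groups.

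Signs changed for Cyba in non-obese against wild-type females (-0.19 with voom and -0.19 without Samples 2 and 10), Inpp5d in the same comparison (-0.37 without Samples 2 and 10, range -0.67 without Sample 10 to 2.16) and in obese against non-obese females (0.47 under both, range -2.79 to 0.47), P2ry13 in obese against wild-type ARC (range -1.45 to 0.0343, the latter without Sample 33), Itgam on HFD in Nnat+/-p ARC (0.38 with voom, range -0.76 to 0.0404, the latter without Sample 39), Ctss in the diet by genotype difference in ARC (-0.00594 with all labelled libraries) and, in ARC against PVN, Csf1r without scaling factors (-0.0741), Sall1 and Inpp5d in HFD-fed pairs (0.11 and 0.33) and C1qa in chow-fed pairs (-0.0551). Many of the 35 genes rest on under 30 counts in a male library, and how small a change this depth could show was not tested.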

Other observations

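The 4 libraries left out of all comparisons held few microglial counts, with 1 exception. Sample 32, whose title and table name different nuclei, had 2196 counts over all 35 genes and a summed level of 298.8 CPM, with Nnat at 4.76 CPM. Sample 7 had 175 counts over 7 of the 35 genes, Sample 35 had 36 counts over 3 of them, and Sample 5 had 0 counts in a library of 2302.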
